A study of Mus musculus with 1012 samples.

Results

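A set of 10 transcription factor genes of fat cell formation was followed across every cell state of the series: Pparg, Cebpa, Cebpb, Cebpd, Ebf1, Ebf2, Zfp423, Prdm16, Srebf1 and Rxra. These 10 genes were chosen by name for their role in adipogenesis, not by a measured value, and all 10 were found among the 30452 features of the count table. The series set Live-seq, in which a fluidic force microscopy probe draws a cytoplasmic biopsy from a living cell, beside single-cell RNA-seq of lysed whole cells, both sequenced from full-length cDNA made by a Smart-seq2 chemistry. All samples came from mouse, and each library held 1 cell or 1 biopsy.

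Adipose stem and progenitor cells (ASPCs) were primary cells from the subcutaneous fat of young adult female C57BL/6J mice, and were taken before induction (ASPC_Pre) or after induction with DMIR, a cocktail of dexamethasone, IBMX, insulin and rosiglitazone (ASPC_Post). IBA cells are a single line made from the stromal vascular cells of the brown fat between the shoulder blades of young male C57BL6/J mice, and were not treated. RAW cells are the macrophage-like RAW264.7 line, here almost entirely the G9 subline, 1 clone that carries a Tnf-mCherry reporter and a RelA-GFP fusion, and were left as mock (RAW_Mock) or given the bacterial product LPS (RAW_LPS). The 11 RAW_LPS biopsies of batch 5Reseq came from the wild-type line. Whole cells came from 3 batches, named 8_8, 9_1 and scRNA, with 15, 45 and 93 IBA cells, 16, 46 and 95 RAW_Mock cells and 15, 46 and 88 RAW_LPS cells. ASPC_Pre cells were in batches 8_8 (16) and 9_1 (44), and the 35 ASPC_Post cells in batch 9_1. Live-seq gave 61 ASPC_Pre, 37 ASPC_Post, 44 IBA and 50 RAW_LPS biopsies, and RAW_Mock biopsies numbered 8, 20, 63 and 12 in batches 6, 7, 8_8 and 9_4. In a further 162 whole IBA cells, those at 1 and 4 h were lysed after a biopsy had been taken and those at 0 h were controls that had not been probed. Of the 37 Live-seq ASPC_Post biopsies, 24 were second extractions from cells sampled before.

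Adipogenesis runs through a relay of transcription factors. Cebpb and Cebpd, basic leucine zipper proteins, come on first after hormonal induction and lead to Pparg, the nuclear receptor that binds DNA as a heterodimer with Rxra, and to Cebpa, which together switch on the genes of the fat cell. Ebf1, Ebf2 and Zfp423 mark or commit the progenitor, Prdm16 and Ebf2 are tied to the brown fat program, and Srebf1 drives fatty acid and triglyceride synthesis genes. Outside fat, Cebpb and Cebpd are also inflammatory response factors of macrophages, and Ebf1 is best known from B cells.

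Promoter sequence is given for 3 of the genes: Pparg, which had no count in any whole RAW cell, and Cebpa and Cebpb. In whole cells of batch 9_1 Cebpa and Cebpb were past a 2-fold difference after induction, as were 23.8% of all genes. Neither gene passed the thresholds of the test of induction given below. Each line holds the 250 bases before a RefSeq start site (assembly GRCm38.p6, + strand), for Pparg chr6:115421816-115422065, for Cebpa chr7:35119043-35119292 and for Cebpb chr2:167688665-167688914. Capitals mark matches, on either strand, to the letters of a C/EBP site (TTNNGCAA), the TGACG core of the cAMP response element or the TATA box (TATAAA).
Pparg: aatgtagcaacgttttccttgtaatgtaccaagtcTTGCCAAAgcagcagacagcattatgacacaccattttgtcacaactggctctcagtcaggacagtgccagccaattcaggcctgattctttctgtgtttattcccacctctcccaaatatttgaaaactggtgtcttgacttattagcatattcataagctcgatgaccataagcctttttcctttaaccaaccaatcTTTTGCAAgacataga
Cebpa: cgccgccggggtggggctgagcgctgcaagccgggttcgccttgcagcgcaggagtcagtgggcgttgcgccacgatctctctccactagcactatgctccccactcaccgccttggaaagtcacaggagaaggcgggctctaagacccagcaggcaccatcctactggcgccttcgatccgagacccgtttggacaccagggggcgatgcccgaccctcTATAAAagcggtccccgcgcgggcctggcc
Cebpb: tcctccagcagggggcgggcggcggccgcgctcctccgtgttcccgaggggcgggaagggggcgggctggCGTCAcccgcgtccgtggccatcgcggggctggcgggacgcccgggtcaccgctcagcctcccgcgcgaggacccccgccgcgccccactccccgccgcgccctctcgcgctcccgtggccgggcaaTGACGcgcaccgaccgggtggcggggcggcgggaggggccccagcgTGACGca

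The Pparg window held TTNNGCAA at positions -215 (reverse strand) and -16 from the start site. In the Cebpb window TGACG stood at -180 (reverse strand), -53 and -7, and in the Cebpa window TATAAA stood at -30. Of 32817 promoter windows, 9.57% held TTNNGCAA, 17.7% TGACG and 12.4% TATAAA. Also searched on both strands were 3 other letter strings, the full cAMP response element TGACGTCA (which contains TGACG, in 1.55% of windows), the PPAR-RXR direct repeat (0.0335%) and the EBF palindrome (0.780%), and none of them stood in these 3 windows. RefSeq promoter windows were matched for 8 of the 10 genes, 15 windows in all. Among the rest, Zfp423 held TTNNGCAA at -131 and another Pparg window held TATAAA at -29, both on the reverse strand. These matches describe letters, not bound sites.

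Levels are given as CPM, a library's reads of a gene scaled to a common total of kept counts, after ribosomal protein genes and the negative-control genes defined by the study had been left out. Because cells of 1 batch are not replicates, counts were summed over the cells of a state within each batch, which gave 12 whole-cell and 15 Live-seq sums; batches are named as in the sample labels, and mean ± SD is over sums. Libraries held 26658 to 1815254 kept counts, with medians of 358707 for Live-seq and 360205 for whole cells, while the median number of genes was 3940 against 8435. The labelled cell types were checked against marker genes. Macrophage markers made up 0.785% to 1.10% of counts in whole RAW cells and at most 0.0607% in IBA and ASPC sums, whereas mesenchymal markers were at most 0.000563% in whole RAW cells and 0.507% to 1.75% in whole IBA cells and ASPCs of the same 3 batches. In Live-seq mesenchymal markers made up 0.327% to 2.02% in IBA cells and ASPCs, and in the IBA cells of the sampling experiment 0.261% to 0.288%. Differences were tested with edgeR's quasi-likelihood test with batch in the model, and a gene was called at a Benjamini-Hochberg adjusted p under 0.05 and a log2 fold change beyond 1. In all, 9 of the 10 genes could be tested, since Zfp423 was counted in too few cells.

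**Figure D1:**
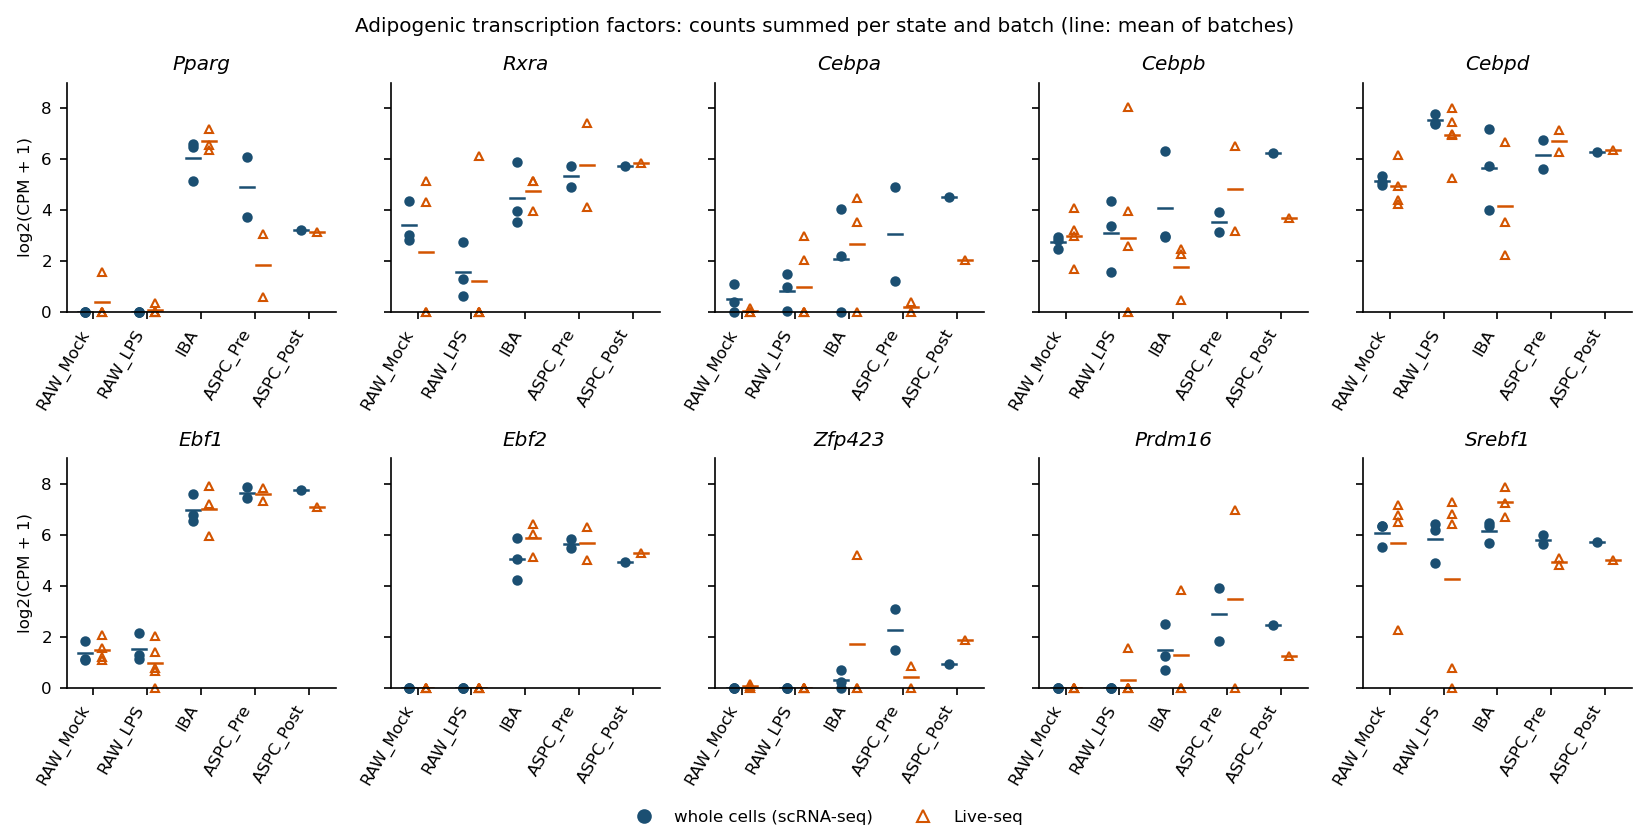
Level of each gene as log2(CPM + 1) (y axis) in each sum of cells by state (x axis), with whole-cell sums as filled blue circles, Live-seq sums as open orange triangles and a line at the mean of batches. Pparg and Ebf2 lie at 0 in all 6 whole RAW sums and above in every IBA and ASPC sum, while Srebf1 lies at a like height in all 5 whole-cell states.

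Whole ASPC_Pre and IBA cells differed from RAW_Mock cells in the receptor Pparg, in both EBF factors and in Prdm16. In ASPC_Pre 5 of the 9 tested genes were higher than in RAW_Mock (Pparg, Ebf1, Ebf2, Prdm16 and Rxra) and none was lower, against 40.0% of all 13563 genes tested being called in that comparison. In IBA cells 4 were higher than in RAW_Mock (Pparg, Ebf1, Ebf2 and Prdm16) and none was lower, against 33.7% of all genes called. With 9 genes, counts of 5 and 4 lie near these background shares. Both comparisons use the same RAW_Mock sums. The median log2 fold change of the 9 genes was 5.43 and 4.59, beside 0.28 and 0.21 over all genes.

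Pparg (ENSMUSG00000000440, chr6:115360951-115490399, + strand, GRCm38) encodes the nuclear receptor PPARγ, the master regulator of the fat cell and the receptor of rosiglitazone. Its level in whole IBA cells was 95.1, 33.9 and 87.4 CPM in batches 8_8, 9_1 and scRNA (mean 72.1 ± 33.3, SD, n = 3). In ASPC_Pre it was 66.9 and 12.2 CPM in batches 8_8 and 9_1 (39.6 ± 38.7, n = 2). The IBA and ASPC_Pre ranges overlapped, and in both states batch 9_1 was the lowest. In ASPC_Post, with batch 9_1 alone, it was 8.42 CPM. None of the 306 whole RAW cells held a Pparg count, which allows a share of cells with a count of up to 0.980%. Measured against a floor of 3 counts over all RAW_Mock cells, Pparg was at least 429.7-fold higher in ASPC_Pre (edgeR, adjusted p = 0.000379) and at least 1355-fold higher in IBA cells (adjusted p = 0.000289). Such folds, here and below, divide pooled CPM by a floor, while the p-values belong to the edgeR fit with batch. The floor treats reads as independent counts, which reads without molecular identifiers need not be. It was counted in 75.8% of whole IBA cells and in 58.3% of ASPC_Pre cells.

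In Live-seq, Pparg stood at 81.7, 142.3 and 93.6 CPM in IBA cells of batches 7, 8_8 and 9_4. In ASPC_Pre it stood at 0.499 and 7.48 CPM in batches 8_8 and 9_4, below every IBA sum. RAW_Mock biopsies were at 0 in 3 of 4 batches and at 2.00 CPM in batch 7, where all 16 counts came from 1 biopsy. Pparg was not called in Live-seq between IBA and RAW_Mock (log2 fold change 10.31, SE 2.80, edgeR adjusted p = 0.107) or between ASPC_Pre and RAW_Mock (5.84, SE 2.68, adjusted p = 0.385). Between IBA cells and ASPC_Pre the log2 fold change was 0.71 (SE 0.51, edgeR adjusted p = 0.411) in whole cells and 4.48 (SE 2.59, adjusted p = 1.00) in Live-seq. A test of the difference between the techniques, added after the data had been seen, gave an unadjusted p of 0.176 for Pparg, the lowest of the 9 genes.

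Ebf1 (ENSMUSG00000057098, chr11:44617317-45008091, + strand) is an early B-cell factor that also acts in adipose progenitors. It was counted in every whole cell of ASPC_Pre, ASPC_Post and IBA of batches 8_8, 9_1 and scRNA. In the IBA cells of the sampling experiment it was counted in 65 of 70, 48 of 49 and 42 of 43 at 0, 1 and 4 h. Its level was 232.5 and 171.8 CPM in ASPC_Pre and 109.6, 92.1 and 191.7 CPM in IBA cells of batches 8_8, 9_1 and scRNA. RAW_Mock sums of these 3 batches lay at 1.16, 2.62 and 1.17 CPM. Every ASPC_Pre and IBA sum was thus above every RAW_Mock sum, and the IBA and ASPC_Pre ranges overlapped. The log2 fold change over RAW_Mock was 7.31 (SE 0.60, edgeR adjusted p = 3.64e-05) in ASPC_Pre and 6.44 (SE 0.57, adjusted p = 5.35e-05) in IBA cells. RAW cells were not empty of Ebf1 counts: 136 of the 306 whole RAW cells held at least 1, with 254 counts in all.

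Ebf1 was the 1 gene of the 9 that was called in Live-seq, in both contrasts with RAW_Mock. Live-seq sums were at 227.2 and 160.6 CPM in ASPC_Pre of batches 8_8 and 9_4, where 1 biopsy gave 75.0% of the counts of batch 8_8. They were at 241.8, 60.4 and 146.6 CPM in IBA cells of batches 7, 8_8 and 9_4, and at 3.20, 1.12, 1.99 and 1.34 CPM in RAW_Mock of batches 6, 7, 8_8 and 9_4. All ASPC_Pre and IBA sums lay above all RAW_Mock sums. The log2 fold change was 7.36 (SE 1.35, edgeR adjusted p = 0.0154) for ASPC_Pre, a comparison in which 2.01% of all genes were called, and 6.43 (SE 1.27, adjusted p = 0.0225) for IBA cells, in which 2.27% of all genes were called. The calls in Live-seq rest on single batches: without batch 7, 8_8 or 9_4 the adjusted p was between 0.118 and 0.459 for ASPC_Pre and between 0.246 and 0.493 for IBA cells.

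Ebf2 (ENSMUSG00000022053, chr14:67233292-67430918, + strand), a selector of brown and beige precursors, had no count in any of the 306 whole RAW cells or in any RAW biopsy, which allows shares of up to 0.980% and 1.95%. It was at 55.4 and 43.6 CPM in whole ASPC_Pre and at 17.7, 32.1 and 57.8 CPM in IBA cells of batches 8_8, 9_1 and scRNA. The 2 ranges overlapped. Ebf2 was at least 970.0-fold higher in ASPC_Pre (edgeR, adjusted p = 0.000389) and at least 924-fold higher in IBA cells (adjusted p = 0.000496) than in RAW_Mock. Live-seq sums were at 79.1 and 31.4 CPM in ASPC_Pre and at 84.1, 63.6 and 34.3 CPM in IBA cells. The Live-seq sum of ASPC_Pre in batch 8_8 came from a single biopsy with 317 counts, and 89.2% of the IBA sum in batch 7 came from 1 biopsy. Ebf2 was not called in Live-seq (edgeR adjusted p = 0.101 for ASPC_Pre and 0.0942 for IBA cells against RAW_Mock).

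Prdm16 (ENSMUSG00000039410, chr4:154316125-154636873, - strand), a co-regulator of brown fat identity, was low wherever it was counted. Whole-cell sums were at 14.1 and 2.63 CPM in ASPC_Pre, at 0.63, 1.40 and 4.62 CPM in IBA cells of batches 8_8, 9_1 and scRNA, and at 4.47 CPM in ASPC_Post. No whole RAW cell held a count, and the IBA and ASPC_Pre ranges overlapped. Prdm16 was at least 91.8-fold higher in ASPC_Pre (edgeR, adjusted p = 0.00709) and at least 61.2-fold higher in IBA cells (adjusted p = 0.0154) than in RAW_Mock. Without the batch named scRNA the IBA call was lost (adjusted p = 0.0796). In Live-seq a single ASPC_Pre biopsy of batch 8_8 held 494 Prdm16 counts, which put that sum at 123.2 CPM, while batch 9_4 was at 0.

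Zfp423 (ENSMUSG00000045333, chr8:87661810-87959595, - strand), a zinc finger marker of committed preadipocytes, was the least counted of the 10. It was at 7.54 and 1.77 CPM in whole ASPC_Pre, at 0, 0.191 and 0.620 CPM in IBA cells, and at 0 in all whole RAW sums. The ASPC_Pre sums lay above the IBA sums. It was counted in 18.3% of whole ASPC_Pre cells and in 3.27% of IBA cells. Against the floor in RAW_Mock it was at least 55.7-fold higher in ASPC_Pre and at least 8.12-fold higher in IBA cells, with no test. A Live-seq value of 35.9 CPM in IBA cells of batch 8_8 came from 1 biopsy.

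Rxra (ENSMUSG00000015846, chr2:27676440-27762957, + strand), the partner of PPARγ, was counted in all 3 cell types. Its whole-cell level was 52.5 and 29.1 CPM in ASPC_Pre, 58.8, 14.7 and 10.6 CPM in IBA cells and 19.6, 6.03 and 7.14 CPM in RAW_Mock of batches 8_8, 9_1 and scRNA. Batch 8_8 was the highest in each of these states. Rxra was higher in ASPC_Pre than in RAW_Mock (log2 fold change 2.26, SE 0.57, edgeR adjusted p = 0.0114), a call that was lost without batch 9_1 (1.31, adjusted p = 0.214). In IBA cells it was not called (edgeR adjusted p = 0.0722).

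Srebf1 and the 3 C/EBP genes were not called between the cell types by edgeR in either technique. For Cebpa this depended on the tool. DESeq2 and the edgeR 4 fit called it in whole cells against RAW_Mock, in ASPC_Pre as in IBA cells. Both also called Rxra in IBA cells, so that each called 6 of the 9 genes in both contrasts. In these contrasts the same tools called 35.2% to 44.5% of all genes. Srebf1 (ENSMUSG00000020538, chr11:60199089-60222581, - strand), the lipogenic SREBP-1 gene, was at 63 and 48.3 CPM in whole ASPC_Pre, at 50, 88.0 and 79.7 CPM in IBA cells and at 44.6, 80.0 and 79.4 CPM in RAW_Mock. All 3 ranges overlapped. Cebpa (ENSMUSG00000034957, chr7:35119293-35121928, + strand) was at 29.4 and 1.36 CPM in ASPC_Pre, at 0, 3.62 and 15.4 CPM in IBA cells and at 1.16, 0 and 0.320 CPM in RAW_Mock (edgeR adjusted p = 0.0880 for ASPC_Pre and 0.146 for IBA cells). The ASPC_Pre sums lay above the RAW_Mock sums, and the IBA sums overlapped with both. Cebpb (ENSMUSG00000056501, chr2:167688915-167690418, + strand) was at 7.78 and 14.2 CPM in ASPC_Pre, at 6.88, 6.77 and 77.9 CPM in IBA cells and at 6.70, 6.18 and 4.54 CPM in RAW_Mock. Only the IBA cells of the batch named scRNA stood apart. Cebpd (ENSMUSG00000071637, chr16:15887286-15891031, + strand) was at 105.5 and 48 CPM in ASPC_Pre, at 15.2, 142.9 and 51.9 CPM in IBA cells and at 30.7, 33.6 and 39.3 CPM in RAW_Mock. Its IBA sums covered the range of both other types. Reads were counted without strand, and exons of Cebpa, Cebpb, Cebpd, Ebf2, Prdm16 and Srebf1 overlap those of a neighbouring gene (for Cebpb 312 bp of Tmem189, for Cebpd 562 bp of Spidr), so reads in these stretches cannot be told apart.

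In Live-seq the same 4 genes and Rxra spread widely between batches. Srebf1 was at 27.2 and 32.9 CPM in ASPC_Pre of batches 8_8 and 9_4 and at 233.3, 104.1 and 152.6 CPM in IBA cells of batches 7, 8_8 and 9_4, with no overlap between these groups, while RAW_Mock ran from 3.84 to 144.5 CPM. Cebpb was at 90.3 and 8.05 CPM in ASPC_Pre and at 0.412, 3.93 and 4.58 CPM in IBA cells, all ASPC_Pre sums above all IBA sums, and at 2.24 to 15.8 CPM in RAW_Mock. Cebpd was at 139.7 and 76.9 CPM in ASPC_Pre and at 10.5, 3.70 and 102.1 CPM in IBA cells, with overlapping groups. Biopsies held few Cebpa counts: ASPC_Pre sums were at 0 and 0.314 CPM, IBA sums at 21.5, 0 and 10.7 CPM, and RAW_Mock held 1 count in all. Rxra was at 167.6 and 16.5 CPM in ASPC_Pre, the former from 2 biopsies, and at 14.7, 34.7 and 34.6 CPM in IBA cells, inside that range but for batch 7.

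None of the 9 genes was called between whole IBA cells and ASPC_Pre by edgeR, where 11.2% of all genes were called, and none by DESeq2, with 0 at an unadjusted p under 0.05 and a lowest adjusted p of 0.187, that of Ebf2. With 9 genes, a count of 0 lies near that background share. Live-seq likewise gave 0 calls by edgeR and by DESeq2 and 0 at an unadjusted p under 0.05, in a comparison with 0.0223% of all genes called. The median log2 fold change of the 9 genes in whole cells was -0.84, beside -0.12 over all genes. The difference between techniques was called for none of the 9 genes, with 0% of all genes called. Of 7 tested genes tied to brown fat, 1 was higher and 1 was lower in whole IBA cells. Zic1, a transcription factor of interscapular brown fat, was at least 217-fold higher (edgeR adjusted p = 0.0343), and Epsti1 was lower, at 0.0146 CPM beside 0.527 CPM in ASPC_Pre (log2 fold change -5.51, adjusted p = 0.0442). Both Epsti1 levels were very low, and its ASPC_Pre sums were at 0 and 0.617 CPM, so its ASPC_Pre counts came from 1 batch. Of the other adipogenic regulators, 1 of 33 tested was higher in IBA cells (Wnt10b, a secreted inhibitor of adipogenesis, log2 fold change 7.20) and 3 were lower (Zfp467, Klf4 and Insig1).

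Per kilobase of exon, the order of the genes differed between states. In whole ASPC_Pre the mean level per kilobase was highest for Ebf1 (20.7 CPM per kb) and Cebpd (20.5), then Pparg (13.4), Srebf1 (9.88), Rxra (7.47), Cebpb (7.30), Ebf2 (7.14) and Cebpa (5.86), with Prdm16 (0.896) and Zfp423 (0.828) last. These means join 2 unlike batches: Pparg was at 22.6 and 4.12 CPM per kb and Cebpa at 11.2 and 0.515 in batches 8_8 and 9_1, so that in batch 9_1 Pparg stood below Cebpb (9.43) and Ebf2 (6.29). In IBA cells Pparg (24.4 CPM per kb), Cebpb (20.3) and Cebpd (18.7) stood first, and the Cebpb value rests on batch scRNA alone. In RAW_Mock cells Srebf1 (12.1 CPM per kb) and Cebpd (9.22) stood first, then Cebpb (3.86) and Rxra (2.00), with Cebpa (0.187) and Ebf1 (0.169) near the bottom and Pparg, Ebf2, Prdm16 and Zfp423 at 0. A whole cell held counts of a median of 7 of the 10 genes in ASPC_Pre, 6 in IBA and 3 in RAW_Mock, and a biopsy 3, 3 and 1.

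The close relatives of the 10 genes were read beside them. In whole ASPC_Pre against RAW_Mock, 4 of 9 tested relatives were higher and 2 were lower, beside 40.0% of all genes called. Zfp521, the antagonist of Zfp423, was at least 756-fold higher (edgeR adjusted p = 0.000694), Ebf3 at least 91.8-fold, Mecom, a relative of Prdm16, at least 96.3-fold, and Ddit3, a C/EBP-related stress factor, by 3.92 on the log2 scale. The granulocyte factor Cebpe was at least 66.0-fold lower (edgeR adjusted p = 0.00636) and Rxrb was lower by a log2 fold change of -1.66 (adjusted p = 0.00354). The IBA contrast called the same number, 4 higher and 2 lower, beside 33.7% of all genes called. Of 19 tested adipocyte target genes, 4 were higher in ASPC_Pre than in RAW_Mock and none lower, a smaller share than the 40.0% of all genes called. Their median log2 fold change was -0.06, beside 0.28 over all genes. Mgst1 (12.95), Fabp4 (at least 485-fold) and Scd1 (6.44) were among the 4. Of 33 other adipogenic regulators, 18 were higher and 1 was lower (median 1.66), again beside 40.0% of all genes called. The genes whose log2(CPM + 1) over the 12 whole-cell sums was most like that of Pparg were Dlx2 (Pearson r = 0.994), Pxdc1 (0.991), Mum1l1, Tmod2 and Osr1 (0.99 each), among 9496 genes. Those most like Ebf2 were Pak3 (r = 0.997), P3h4, Cav1 and Ephb4 (0.995 each) and Pcdhgc3 (0.994). These are descriptions over sums that share batches and cell types.

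In RAW cells given LPS, Cebpd and Rxra were the 2 genes with an unadjusted p under 0.05, in opposite directions, and neither was called by edgeR. Whole-cell Cebpd was at 30.7, 33.6 and 39.3 CPM in RAW_Mock (34.5 ± 4.38, SD, n = 3) and at 215.0, 166.7 and 171.6 CPM in RAW_LPS (184.4 ± 26.6, n = 3) of batches 8_8, 9_1 and scRNA. All 3 LPS sums lay above all 3 mock sums. The log2 fold change was 2.57 (SE 0.66), with an unadjusted p of 0.00367 and an adjusted p of 0.115 by edgeR. Rxra was at 19.6, 6.03 and 7.14 CPM in RAW_Mock (10.9 ± 7.53) and at 5.81, 0.550 and 1.49 CPM in RAW_LPS (2.62 ± 2.81). It was lower with LPS in each of the 3 batches, and the groups did not overlap, although the highest LPS sum lay close to the lowest mock sum. The log2 fold change of Rxra was -2.23 (SE 0.52), with an unadjusted p of 0.00206 and an adjusted p of 0.0885 by edgeR.

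By edgeR 0 of 9 genes were called with LPS in whole cells, where 1.23% of all genes were called, and 2 had an unadjusted p under 0.05. Pparg, Ebf2 and Prdm16 had no count in either group, so they could not be called. DESeq2 called both, Cebpd (log2 fold change 2.59, adjusted p = 0.00192) and Rxra (-2.22, adjusted p = 0.00211), so the call depends on the tool. Over the alternatives the adjusted p ranged from 0.00192 to 0.435 for Cebpd and from 0.00211 to 0.724 for Rxra. The share of whole RAW cells with a Cebpd count was 62.5%, 69.6% and 74.7% in mock and 100%, 97.8% and 98.9% with LPS in batches 8_8, 9_1 and scRNA. For Rxra it was 50%, 32.6% and 25.3% in mock and 26.7%, 6.52% and 9.09% with LPS. In each batch the share was higher with LPS for Cebpd and lower for Rxra. Over all batches, with every cell thinned to 50000 counts these shares were 51.9% and 95.3% for Cebpd and 17.9% and 4.03% for Rxra.

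**Figure D2:**
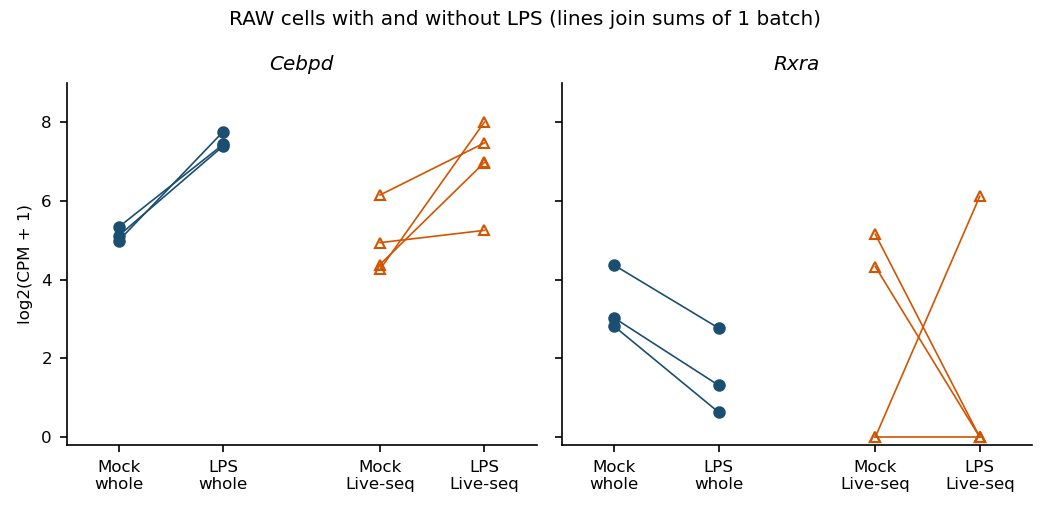
Level of Cebpd and Rxra as log2(CPM + 1) (y axis) in RAW_Mock and RAW_LPS sums (x axis) for whole cells and Live-seq, with a line joining the sums of 1 batch. In whole cells every line goes up for Cebpd (mock 30.7 to 39.3 CPM, LPS 166.7 to 215.0 CPM) and down for Rxra, whereas Live-seq lines spread more widely and the wild-type LPS sum has no mock partner.

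In Live-seq, Cebpd was at 69.7, 19.8, 29.6 and 18.1 CPM in RAW_Mock of batches 6, 7, 8_8 and 9_4. With LPS it was at 175.8, 124.4, 37.0 and 254.1 CPM in the same batches and at 122.3 CPM in the wild-type biopsies of batch 5Reseq. It was higher with LPS in 4 of 4 batches with both groups, but the groups overlapped, and both values of batch 6 came from 1 biopsy each. The log2 fold change was 1.95 (SE 1.07, edgeR adjusted p = 1.00). Rxra was at 0, 0, 19.1 and 34.5 CPM in RAW_Mock and at 0 in 4 of 5 LPS sums. The LPS sum of batch 7 stood at 68.2 CPM from 678 counts in 3 of 16 biopsies. No gene of the 9 was called with LPS in Live-seq by edgeR or DESeq2, with 0 at an unadjusted p under 0.05 and 0% of all genes called by edgeR. Ebf2 had no count in either group of biopsies, so it could not be called. The difference between techniques was called for none of the 9 genes, again with 0% of all genes called (lowest unadjusted p 0.171, for Ebf1).

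The other members gave no call with LPS. Whole-cell Cebpb was at 6.70, 6.18 and 4.54 CPM in RAW_Mock and at 19.6, 9.45 and 2.00 CPM in RAW_LPS, higher in 2 batches and lower in the batch named scRNA. In Live-seq the wild-type LPS biopsies of batch 5Reseq stood at 264.8 CPM of Cebpb, with 1375 counts in 10 of 11 biopsies, while the 4 LPS sums of the G9 subline were at 0, 5.03, 14.7 and 0 CPM. The cell line and the batch cannot be told apart there. Srebf1 was at 44.6, 80.0 and 79.4 CPM in mock and 29.1, 84.4 and 71.6 CPM in LPS whole cells, with overlapping groups. Ebf1 was at 1.45, 3.44 and 1.22 CPM in whole RAW_LPS cells, overlapping with its mock range. Among the target genes, 1 of 19 was called in whole cells, the lipase inhibitor Angptl4, which was lower with LPS (log2 fold change -2.14). Of all genes, 1.23% were called in that comparison.

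The question put to the ASPCs was what induction with DMIR did. Within each technique a single batch held both states, batch 9_1 for whole cells (44 and 35 cells) and batch 9_4 for Live-seq (43 and 37 biopsies). In a fit over both techniques 0 of 9 genes were called by edgeR or DESeq2, with 0 at an unadjusted p under 0.05 and 0% of all genes called. The log2 fold changes were -0.12 (SE 2.73) for Pparg, 2.66 (SE 2.41) for Cebpa and 1.35 (SE 1.59) for Cebpb, each with an edgeR adjusted p of 1.00. The values that follow compare libraries of 1 batch, and their intervals hold counting error alone; without molecular identifiers, reads do not stand for separate molecules.

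In whole cells, 2 of the 9 genes were past a 2-fold difference on log2(CPM + 1) after induction, Cebpa and Cebpb, both higher, beside 23.8% of all genes. Cebpa was at 1.36 CPM before and 22.1 CPM after induction, a ratio of 16.3 (95% interval 11.4 to 24). A single cell held 40.8% of the Cebpa counts after induction, and without it the level was 13.9 CPM. Cebpa was counted in 22.7% of cells before (exact interval 11.5% to 37.8%) and 54.3% after (36.6% to 71.2%), or in 11.4% and 31.4% after thinning. The level of Cebpb was 14.2 CPM before and 74.3 CPM after, a ratio of 5.24 (4.65 to 5.92). The median cell went from 9.91 to 66.0 CPM of Cebpb, and thinned cells with a count from 45.5% to 91.4%. The ASPC_Post sum of Cebpb was also above ASPC_Pre of batch 8_8, whereas Cebpa in that batch was at 29.4 CPM before induction, above the ASPC_Post value.

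Pparg did not go the same way. It was at 12.2 CPM before and 8.42 CPM after induction, a ratio of 0.692 (0.563 to 0.847). A single cell gave 70.3% of the ASPC_Post counts, and without it the level was 2.65 CPM. Pparg was counted in 59.1% of cells before (43.2% to 73.7%) and 28.6% after (14.6% to 46.3%), or in 27.3% and 14.3% after thinning. Its partner Rxra had a ratio of 1.80 (1.63 to 1.99) and Cebpd one of 1.61 (1.49 to 1.75). The progenitor factors lay at 0.679 (0.610 to 0.755) for Ebf2 and 0.526 (0.276 to 0.953) for Zfp423, and Srebf1 at 1.08 (0.988 to 1.18).

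**Figure D3:**
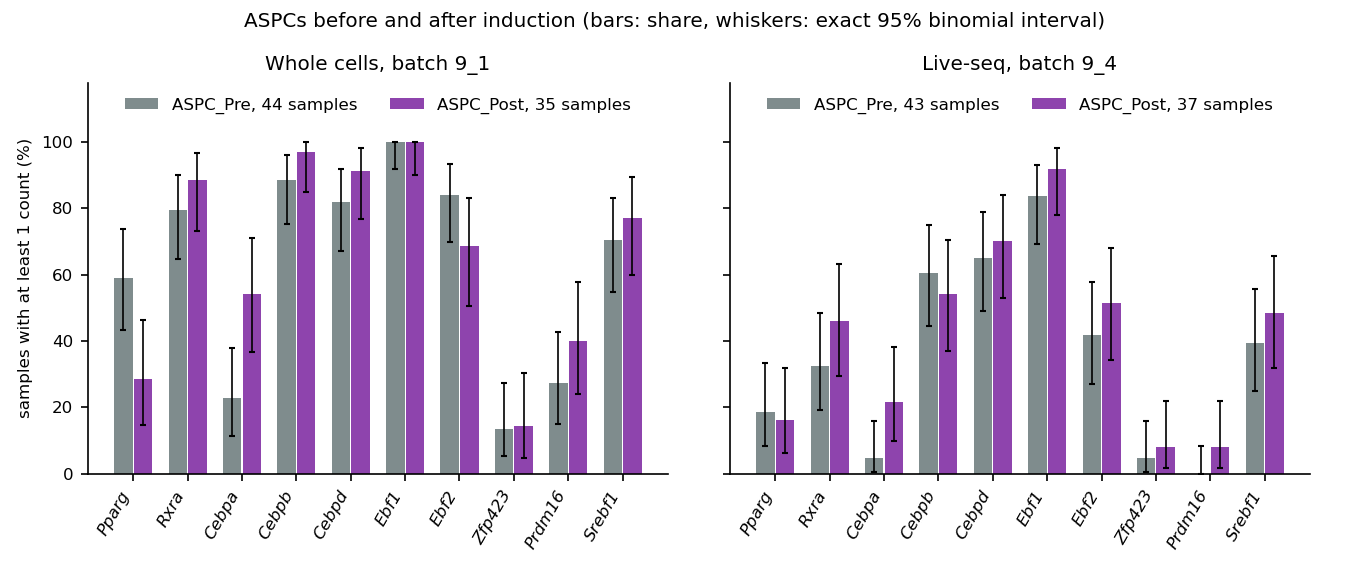
Percent of samples with at least 1 count of each gene (y axis) before and after induction, in whole cells of batch 9_1 (44 and 35 cells) and Live-seq of batch 9_4 (43 and 37 biopsies), with exact 95% binomial intervals as whiskers. In whole cells Cebpa stands at 22.7% before and 54.3% after induction, and Pparg at 59.1% before and 28.6% after.

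In Live-seq, 3 of the 9 genes were past 2-fold after induction, Cebpa, Prdm16 and Rxra, all higher, beside 29.1% of all genes. Cebpa was at 0.314 CPM before and 3.19 CPM after, a ratio of 10.2 (4.08 to 32.6), and was counted in 4.65% and 21.6% of biopsies. The level of Rxra went from 16.5 to 56.1 CPM, a ratio of 3.41 (2.97 to 3.92), and stood at 40.2 CPM without the biopsy that held 30.7% of its counts. Prdm16 had 22 counts after induction in 3 biopsies and 0 before. Cebpb was at 8.05 CPM before and 11.8 CPM after, a ratio of 1.46 (1.16 to 1.84), and was counted in 60.5% of biopsies before and 54.1% after. Pparg was at 7.48 and 7.76 CPM, a ratio of 1.04 (0.800 to 1.34). Thus both batches had a higher Cebpa sum after induction and neither had a higher share of samples with Pparg. The difference between the 2 techniques was called for none of the 9 genes, with 0% of all genes called (lowest unadjusted p 0.113, for Prdm16).

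**Figure D4:**
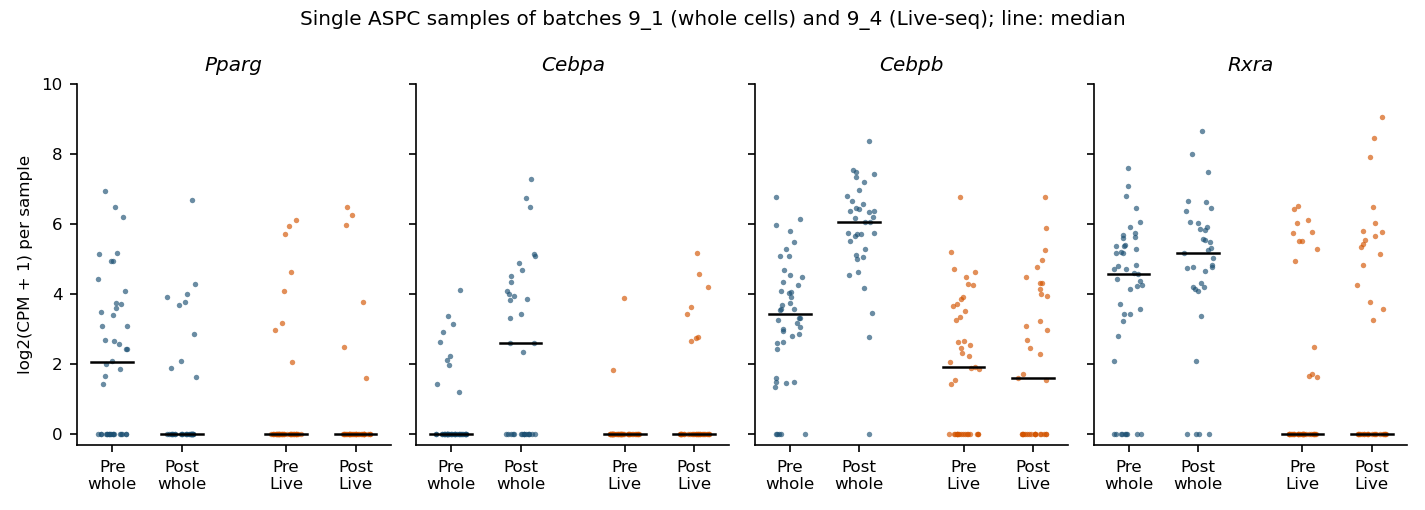
Level of Pparg, Cebpa, Cebpb and Rxra as log2(CPM + 1) (y axis) in each sample before and after induction, for whole cells of batch 9_1 and Live-seq of batch 9_4, with a line at the median. The median for Cebpb in whole cells goes from 9.91 to 66.0 CPM, while many samples lie at 0 for Pparg and Cebpa.

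A further view came from 9 ASPCs for which the sample labels pair a Live-seq biopsy before induction with a biopsy after it. The pairs were taken from the labels and were not checked against the genetic barcodes. The paper reports fewer ASPC pairs with matching barcodes, and this difference was not resolved. Cebpd was higher after induction in 7 of these 9 cells and lower in 2, and Ebf1 was higher in 4 and lower in 5. Cebpb was higher in 4 and lower in 5. Ebf2 was counted in 2 of the 9 before and 4 after, never in the same cell, and Pparg in 1 before and another 1 after. Cebpa was counted in none before and 1 after, and Prdm16 in none. With 1 biopsy per time and few counts, an uncounted gene in a biopsy was not shown to be absent from the cell.

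Genes that the fat cell factors are known to switch on were read in the same 2 batches. Of 19 adipocyte target genes, 7 were more than 2-fold higher after induction in each batch, and 2 in whole cells and 1 in Live-seq were more than 2-fold lower, with medians of 0.52 and 0.33 on the log2 scale beside -0.02 and -0.10 over all genes. Of all genes, 23.8% in whole cells and 29.1% in Live-seq were past 2-fold in either direction. Fabp4, the fatty acid carrier of adipocytes, was at 16 and 572 CPM in whole cells and at 17.7 and 319 CPM in Live-seq. The desaturase gene Scd1 was at 261 and 1001 CPM and at 184 and 768 CPM. Fabp5, of the same list, went the other way. In whole cells it was at 6.39 CPM in ASPC_Post, beside 32.2 to 148.8 CPM over the batches of ASPC_Pre. In Live-seq of batch 9_4 its difference after induction on log2(CPM + 1) was -3.78. Of the genes of the mature fat cell, Adipoq, Lep and Cidec were at 0 in whole ASPC_Post cells, and Plin1 and Retn were at 0.174 and 0.697 CPM. Of 33 other regulators, 6 were more than 2-fold higher and 4 lower in whole cells, and 7 and 4 in Live-seq, with Egr2 (Krox20, an early inducer) at 30 and 68.7 CPM and at 8.80 and 69.3 CPM. Nuclear-retained RNAs moved with induction too. All 4 listed were more than 2-fold higher after it in both batches, and their summed share was 0.118% to 0.286% before and 1.25% after in whole cells, and 0.00786% to 0.133% and 0.727% in Live-seq. Their part in the differences above was not tested.

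IBA cells lysed 1 or 4 h after a biopsy were set beside unprobed cells (0 h), to ask whether sampling itself moved these genes. Each time point was 1 group of 1 batch (70, 49 and 43 cells at 0, 1 and 4 h), so no test between cells was made. At 1 h 0 of the 9 genes were past 2-fold, beside 8.04% of all genes. At 4 h 2 were, Cebpa lower and Prdm16 higher, beside 10.3% of all genes. Cebpa was at 3.98, 2.91 and 0.692 CPM at 0, 1 and 4 h, a ratio at 4 h of 0.174 (0.0841 to 0.325). The Prdm16 value at 4 h, 2.07 CPM, came from 33 counts in 3 cells.

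Pparg was at 59.9, 33.6 and 43.7 CPM at 0, 1 and 4 h. The ratio to 0 h was 0.561 (0.513 to 0.614) at 1 h and 0.729 (0.665 to 0.799) at 4 h, and Pparg was counted in 57 of 70, 29 of 49 and 25 of 43 cells. Beside the 33.9 to 95.1 CPM of the whole IBA sums of the other batches, the 1 h value lay just below this range and the 4 h value inside it. Ebf2 had ratios of 0.714 (0.635 to 0.803) and 0.767 (0.675 to 0.870). Ebf1 was at 88.1, 107.6 and 84.9 CPM and Rxra at 26.5, 31.1 and 34.3 CPM. Cebpb and Cebpd respond to stress and inflammation. Cebpb was at 8.48, 8.21 and 5.47 CPM at 0, 1 and 4 h. Cebpd was at 9.51, 11.8 and 5.91 CPM, higher at 1 h than at 0 h (ratio 1.24, 1.04 to 1.49) and lower at 4 h. Neither was past 2-fold.

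**Figure D5:**
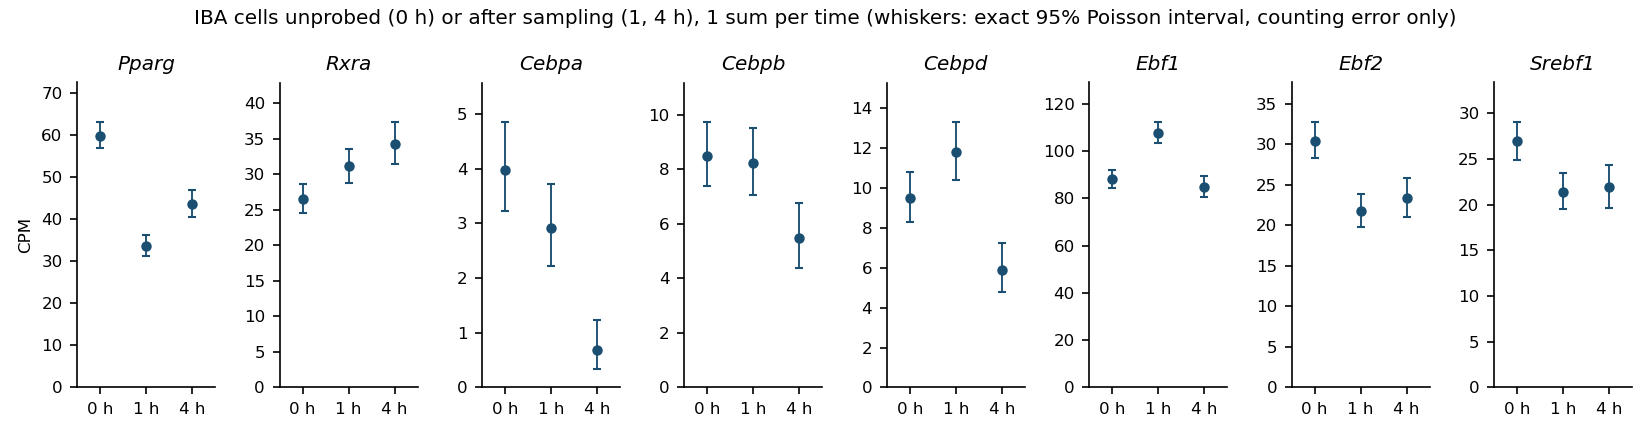
Level in CPM (y axis) of 8 of the genes in whole IBA cells not probed (0 h) or lysed 1 or 4 h after a biopsy (x axis), with exact 95% Poisson intervals for counting error as whiskers and 1 sum of cells per point. Pparg goes from 59.9 to 33.6 and 43.7 CPM, and Cebpa ends at 0.692 CPM.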

How the data were processed

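Gene counts of 1012 single-cell or single-biopsy libraries (296 Live-seq, 554 whole cells, 162 whole IBA cells of the sampling experiment, of which those at 0 h were not probed) were used as deposited. The authors aligned reads with STAR to GRCm38 and counted them per Ensembl gene with HTSeq without strand; the submitters' processing notes name STAR 2.6.1c and bcl2fastq 2.19.1. The deposited counts are whole reads without molecular identifiers. Dropped from all libraries were 20 negative-control genes and 91 genes of ribosomal proteins, and CPM refer to the kept counts.

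Cells of a state were summed per batch, with at least 3 cells per sum, which left out 1 RAW_Mock biopsy of batch 5Reseq. The sums were tested with edgeR 4.0.16 in R 4.3.3 (quasi-likelihood test) with state and batch as terms, over genes with at least 2 counts in 15% of the cells of a whole-cell state that also passed filterByExpr. Induction was fitted over both techniques. The edgeR fits and the test of the difference between techniques were tried on simulated data. Labels give batches but no separate cultures or animals. With batch as a term, p-values measure how differences between states vary among batches, with the spread pooled over all states of a fit. For induction the spread is pooled over the batches of both techniques. The batch label pairs sums of different states; the deviations of paired sums correlated at 0.094 to 0.432 in whole cells and -0.0355 to 0.245 in Live-seq. Alternatives were DESeq2 1.42.0, the newer edgeR 4 fit, other filters, no batch term, cells sampled down to equal depth, both techniques in 1 fit and each batch left out. Thinned shares used 50000 kept counts per cell, and 6 shallower cells were left out of them. Plots were made with matplotlib 3.10.9, and promoters came from RefSeq (GRCm38.p6).

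The 10 genes were named in full. From each gene list, at most 6 called genes with the largest log2 fold change were eligible to be named, relatives of the 10 genes by name, and with no call those of at least 50 CPM in a group. For Pparg and Ebf2 the 5 genes with the highest Pearson r were named, among genes with a mean of at least 10 CPM. The 10 genes and the lists were chosen with earlier results of these data known.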

Additional observations from a re-analysis of the deposited data

Results flagged for a closer look

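Live-seq sums of 4 or more batches were searched for a value whose gap to its nearest neighbour, over the range of the group, was beyond Dixon's 95% critical value. Chance flags about 1 in 20 such groups, and a group with a single sum above 0 is always marked. Only RAW_Mock and RAW_LPS had that many batches, and of 16 groups tested, 6 held such a value. The Cebpb value of the wild-type RAW_LPS biopsies in batch 5Reseq, 264.8 CPM, stood far from the next highest, 14.7 CPM, and came from 10 of 11 biopsies. The Rxra value of RAW_LPS in batch 7, 68.2 CPM, came from 678 counts in 3 of 16 biopsies, with the other batches at 0. Pparg in batch 7 was at 2.00 CPM in RAW_Mock, from 16 counts of 1 biopsy, and at 0.302 CPM in RAW_LPS, from 3 counts of 1 biopsy. Prdm16 in RAW_LPS of batch 5Reseq was at 1.93 CPM, from 10 counts of 1 biopsy. Cebpa in RAW_Mock of batch 7 was at 0.125 CPM, from 1 count.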

How the results depend on the processing

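The whole-cell counts of called genes in ASPC_Pre and IBA cells against RAW_Mock stayed within 1.5 times under every alternative run, but the genes behind them varied: among the alternatives, Cebpa was called in 3 of 11 for ASPC_Pre and 4 of 11 for IBA cells, Cebpd in 2 of 11 for ASPC_Pre and Rxra in 2 of 11 for IBA cells. With LPS in whole cells 0 genes were called by edgeR, 2 by DESeq2, 1 by the edgeR 4 fit and 1 with cells sampled down. In Live-seq, ASPC_Pre against RAW_Mock gave 1 call, but 2 with DESeq2, the edgeR 4 fit, cells sampled down or no replicate block, 4 with both techniques in 1 fit, and 0 to 1 with a batch left out. IBA against RAW_Mock in Live-seq gave 1 call, but 3 with DESeq2 or the edgeR 4 fit, 2 with cells sampled down or no replicate block, 5 with both techniques, and 0 to 1 with a batch left out. Calls rose over all genes too: both techniques in 1 fit called 28.3% for ASPC_Pre and 24.4% for IBA cells, beside 2.01% and 2.27% in Live-seq alone. With cells sampled down 5.05% and 5.01% of all genes were called. With a batch left out the shares were 0.00747% to 2.94% and 0.0971% to 2.82%. The log2 fold change of Pparg after induction, -0.12, turned to 0.35 without second extractions, and ranged from -0.64 to 0.35 with a batch left out. Within Live-seq alone, an alternative chosen after seeing the data like the test between techniques, it was 1.06, within whole cells alone -0.82, and with no replicate block -1.19. Without the replicate block, Rxra in whole ASPC_Pre was no longer called (edgeR adjusted p = 0.0705), and with both techniques its adjusted p was 0.270. Over all genes, LPS gave calls for 1.23% in whole cells by edgeR, 5.26% by DESeq2, 3.02% by the edgeR 4 fit, 3.11% with cells sampled down, 0.258% with no replicate block, 0.199% with both techniques and 0% without batch 8_8. Between whole IBA cells and ASPC_Pre they numbered 1514, with 2627 by the edgeR 4 fit, 950 with no replicate block, 43 without batch 9_1 and 440 without batch scRNA. In Live-seq, LPS gave 0 and by DESeq2 642, and 270 genes were called for ASPC_Pre and 305 for IBA cells against RAW_Mock, 1390 and 1482 by DESeq2, 700 and 718 by the edgeR 4 fit and 598 and 661 with no replicate block. For IBA cells against ASPC_Pre in Live-seq they were 3 and by DESeq2 276, and after induction 0, 99 by DESeq2 and 29 by the edgeR 4 fit. Zfp423 was called in whole ASPC_Pre against RAW_Mock when no filter on low counts was set. The cause of these differences was not tested. At the median depth of either technique, a gene at 1 CPM gives under 1 expected count in a cell or biopsy.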

Other observations

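Genes tied to brown fat were read beside Prdm16 and Ebf2 in whole cells. Of 7 tested, 4 were higher in ASPC_Pre than in RAW_Mock and 1 was lower, and in IBA cells the counts were also 4 and 1, beside 40.0% and 33.7% of all genes called. The genes differed in part, with Dio2 called in ASPC_Pre and Zic1 in IBA cells. Tbx15, a T-box factor of fat depots, was at 57.6 CPM in pooled ASPC_Pre and 18.4 CPM in RAW_Mock (log2 fold change 2.98, edgeR adjusted p = 0.00109), and in pooled IBA cells at 51.3 CPM (2.12, adjusted p = 0.00330). Lhx8, a LIM homeobox gene of brown fat precursors, was at 2.53 CPM in ASPC_Pre, 22.2 CPM in IBA cells and 0.0156 CPM in RAW_Mock, and was called against RAW_Mock in both (edgeR adjusted p = 0.0406 and 0.00866). Dio2, the deiodinase that activates thyroid hormone, was at least 66.2-fold higher in ASPC_Pre (adjusted p = 0.0430).

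Relatives of the 10 genes had levels of their own in whole cells. Whole RAW_Mock cells, with no Pparg count, held Ppard at 3.60 to 4.84 CPM over 3 batches, below the 11 to 18.6 CPM of IBA cells and the 8.34 to 9.73 CPM of ASPC_Pre. Rxrb was at 54.2 to 107.4 CPM in RAW_Mock, 21.6 to 36.7 CPM in IBA cells and 15.7 to 24.6 CPM in ASPC_Pre, the opposite order to that of Rxra in the means. Srebf2, the cholesterol branch of the SREBP family, was at 72.8 to 164.7 CPM in RAW_Mock and 84.8 to 150.3 CPM in ASPC_Pre, with overlapping ranges.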
